A study of Mus musculus with 12 samples.

Results

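The genes by which sympathetic neurons make, store, release and take back noradrenaline, or by which this type of neuron is set and maintained, were followed in the wall of the mouse inferior vena cava (IVC). The 9 genes were Th, Dbh, Ddc, Slc18a2, Slc6a2, Phox2a, Hand2, Npy and Ret, a list set by gene function with earlier results of these data known. All 9 were found among the 55414 genes of the deposited table, and all 9 passed the filter for the comparison of operations, more than 1 CPM (counts scaled to the size of the library) in at least 2 samples, which kept 15912 genes. Poly-A RNA was sequenced from the IVC of 12 wild-type C57BL/6J mice aged 10 weeks, with 1 library for each mouse. In 6 mice, 3 female and 3 male, an infrarenal aortocaval arteriovenous fistula (AVF) was made with a needle passed through the aorta into the IVC. The other 6, also 3 of each sex, had a sham operation without the puncture, and every vein was taken on day 7. Anesthesia with isoflurane, buprenorphine for pain and a laparotomy with exposed vessels were part of the model. The samples were whole pieces of vein, so they held whatever nerve, ganglion, fat and glia stayed on the wall.

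Postganglionic sympathetic neurons lie in ganglia beside the aorta, and their axons run in the outer layer of arteries and veins, where noradrenaline and neuropeptide Y constrict smooth muscle. The transmitter is built from tyrosine by tyrosine hydroxylase and aromatic amino acid decarboxylase in the cytosol, is packed by a vesicular transporter, becomes noradrenaline inside the vesicle and is cleared by reuptake into the axon. Most mRNA of these genes stays in the cell body, and less is carried into the axon.

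The libraries held 15177881 to 22717423 counts, and 3 counts corresponded to 0.127 to 0.324 normalized CPM, below the lowest value of any of the 9 genes. Ribosomal RNA made up 2.39% to 12.6% of the counts in 11 libraries and 46% in AVF female replicate 1, whose scaling factor was 0.6114, so that its normalized values stood well above its plain CPM. Hepatocyte genes summed to 2370 normalized CPM in AVF male replicate 2 and to 6552 in AVF female replicate 2, against 0.4776 to 3.761 in the other 10 veins, and all 6 genes of that list, among them Alb, Apoa1, Ttr and Mug1, were called higher in AVF by the test described next (3.37% of all genes). All 7 vein wall genes (smooth muscle Acta2, Myh11, Tagln and Cnn1, endothelial Pecam1, Cdh5 and Emcn) were present, with log2 fold changes of AVF over sham between -0.28 and 0.35 and none past the test.

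Sympathetic neuron genes were lower after AVF in all 9 cases, by log2 fold changes between -1.04 for Ddc and -1.26 for Npy, with a median of -1.13 where the median of all genes tested was -0.014. A fold change of this size or larger in this direction, a log2 of -1 or lower, was reached by 9 of 9 of these genes and by 4% of all genes tested. Only Ret was called lower, which required an adjusted p under 0.05 (edgeR's quasi-likelihood test with Benjamini-Hochberg adjustment over all genes tested) and at least a 2-fold change. Of all genes 1.4% were called lower and 4.77% were called in either direction. With the adjusted p alone, Ret was again the only one of the 9 that passed, against 5.13% of all genes. At an unadjusted p under 0.05 all 9 were lower, against 15.2% of all genes. For 8 of the 9 the spread between veins was too large for the adjusted threshold, with adjusted p between 0.0542 and 0.108. No gene of the 9 had every AVF vein under every sham vein, an ordering found for 1.51% of all genes. In whole pieces of vein, fewer neurons, less RNA in each neuron and a smaller share of ganglion or nerve in the piece cannot be told apart.

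The number of calls depended on which vein was in the fit. Without AVF female replicate 1, the vein with 46% ribosomal RNA, 8 of the 9 were called lower (2.61% of all genes), and without sham female replicate 1 also 8 (2.03% of all genes), in both cases all but Phox2a. None was called without AVF male replicate 1, without AVF male replicate 3, without sham female replicate 3, or without both veins that held hepatocyte RNA, because the fold change of Ret then fell short of 2 while its adjusted p stayed between 0.0199 and 0.0414. DESeq2 called 9 of 9 (2.56% of all genes called lower) and the exact test of edgeR 8 of 9 (2.27%), again without Phox2a.

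**Figure D1:**
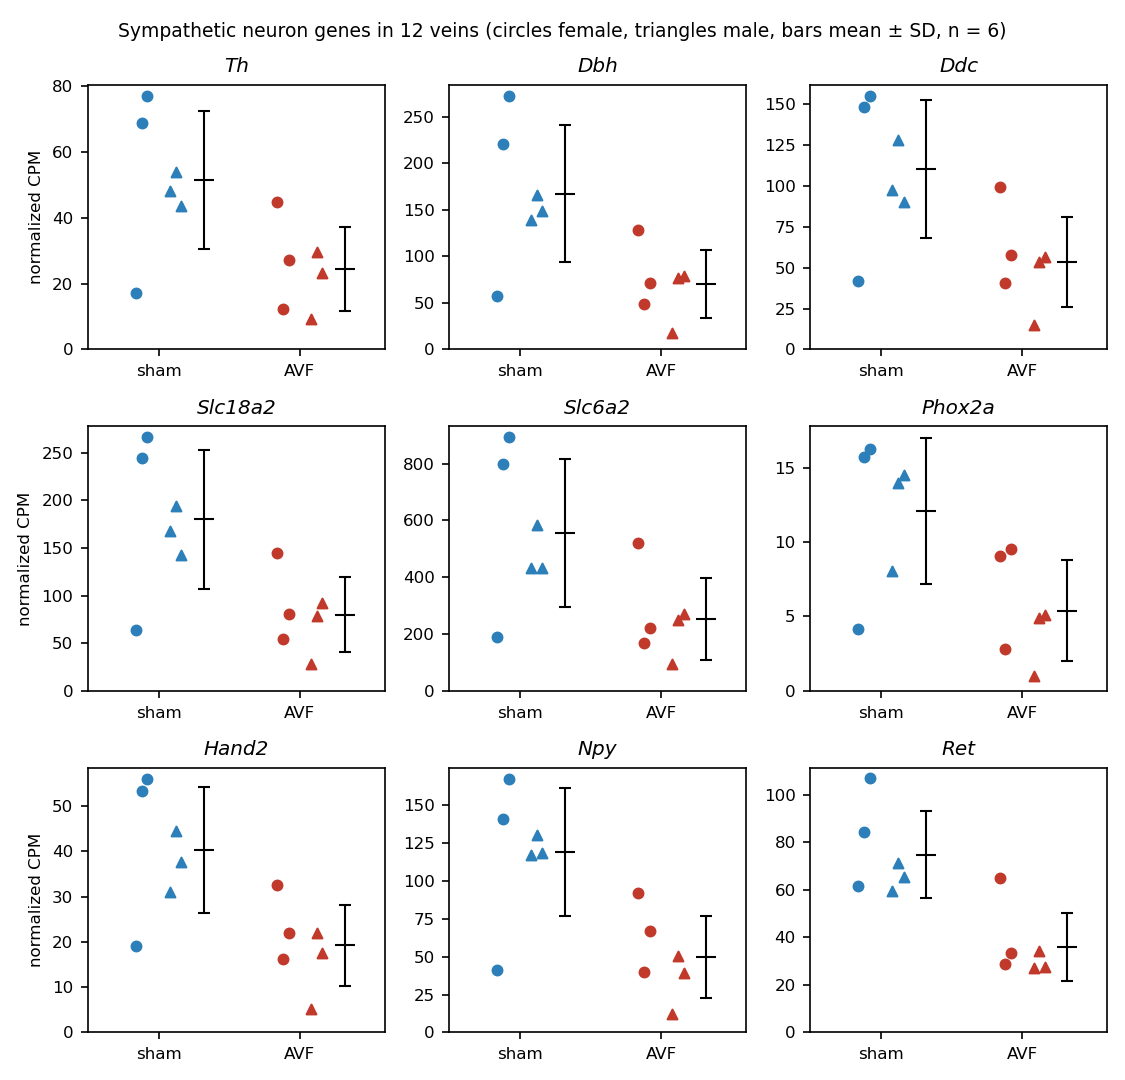
Normalized CPM of the 9 sympathetic neuron genes in 12 veins, 1 panel for each gene, with sham in blue and AVF in red, female mice as circles, male mice as triangles, and the mean with its SD (n = 6) as a bar. In every panel the sham mean is above the AVF mean and the veins of both operations overlap.

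The enzymes Th, Ddc and Dbh carry tyrosine to noradrenaline. Th (ENSMUSG00000000214, GRCm39 chr7:142443466-142484865, minus strand) encodes tyrosine hydroxylase, the rate-limiting step. Its normalized CPM was 17.2 at the lowest, 51.0 at the median and 77.2 at the highest in sham veins, and 9.33, 25.2 and 44.9 in AVF veins. The ranges overlapped, with 4 of 6 AVF veins above the lowest sham vein and 4 of 6 sham veins above every AVF vein. The mean was 51.5 ± 21.1 in sham and 24.5 ± 12.9 in AVF (SD, n = 6 each), a log2 fold change of -1.08 ± 0.39 (SE) with an adjusted p of 0.0820.

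Ddc (ENSMUSG00000020182, chr11:11762602-11848150, minus strand) encodes aromatic amino acid decarboxylase, which turns L-DOPA into dopamine. Sham veins held 42.1, 113 and 155 normalized CPM (lowest, median, highest) and AVF veins 14.8, 54.9 and 99.3. Here too 4 AVF veins exceeded the lowest sham vein, and 3 of 6 sham veins lay above all AVF veins. The log2 fold change was -1.04 ± 0.39, the smallest of the 9, with an adjusted p of 0.0865.

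Dbh (ENSMUSG00000000889, chr2:27055245-27074212, plus strand) encodes dopamine beta-hydroxylase, which makes noradrenaline inside the vesicle. Lowest, median and highest values were 56.9, 157 and 272 normalized CPM in sham veins and 18.1, 73.8 and 128 in AVF veins. All but 1 of the sham veins were above every AVF vein, and that one, sham female replicate 1, was below 4 of them. The mean was 167 ± 73.6 in sham and 70.2 ± 36.5 in AVF, with a log2 fold change of -1.25 ± 0.41 that missed the threshold (adjusted p 0.0616).

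The promoters of Th, Dbh and Slc18a2, the last the vesicular transporter described next, are shown as examples of the 9. Shared regulation of these genes was not tested. Each is the stretch of 250 bases before the start of the canonical GENCODE M39 transcript on GRCm39, 5′ to 3′ on the strand of the gene: chr7:142453752-142454001 (minus) for Th, chr2:27054995-27055244 (plus) for Dbh and chr19:59248988-59249237 (plus) for Slc18a2. Capitals mark the cyclic AMP response element TGACGTCA and the homeodomain core ATTA, which reads TAAT on the other strand.
Th: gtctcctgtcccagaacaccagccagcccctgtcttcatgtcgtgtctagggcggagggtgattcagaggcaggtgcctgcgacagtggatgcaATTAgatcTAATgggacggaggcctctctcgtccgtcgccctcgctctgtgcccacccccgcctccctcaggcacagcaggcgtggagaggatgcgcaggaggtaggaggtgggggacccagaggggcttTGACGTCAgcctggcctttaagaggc
Dbh: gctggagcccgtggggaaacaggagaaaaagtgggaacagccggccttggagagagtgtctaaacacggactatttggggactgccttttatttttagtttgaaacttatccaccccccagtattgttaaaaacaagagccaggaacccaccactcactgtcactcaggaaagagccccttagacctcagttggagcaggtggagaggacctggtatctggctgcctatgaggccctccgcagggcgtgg
Slc18a2: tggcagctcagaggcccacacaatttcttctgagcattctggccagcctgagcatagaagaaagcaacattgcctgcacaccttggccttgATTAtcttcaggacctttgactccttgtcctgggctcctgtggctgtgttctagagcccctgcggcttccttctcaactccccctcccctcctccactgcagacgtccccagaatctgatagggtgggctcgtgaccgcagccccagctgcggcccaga
On either strand, TGACGTCA was present in 1.69% of the 21770 promoters of the same length and in 1 of the 9 here, that of Th, at -26 to -19 from the start. ATTA, the core that homeodomain factors such as Phox2a read, was in 55.2% of all promoters and in 6 of the 9 (Ddc, Hand2, Ret, Slc18a2, Slc6a2 and Th), and the Th promoter held it at -156 to -153 and at -148 to -145. The E-box CATCTG was in 13% of all promoters and in 1 of the 9, that of Hand2. The promoter of Dbh held none of these letters in this window. Part of the Th window is first exon in other annotated transcripts of Th.

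Both transporters of the terminal had a lower mean after AVF. Slc18a2 (ENSMUSG00000025094, chr19:59249238-59284695, plus strand) encodes VMAT2, which fills vesicles with monoamines. Its normalized CPM ran from 64.3 through a median of 181 to 266 in sham veins and from 28.04 through 79.6 to 145 in AVF veins. Again 4 AVF veins were above the lowest sham vein. The log2 fold change was -1.18 ± 0.37 and its adjusted p, 0.0542, was the second lowest of the 9.

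Slc6a2 (ENSMUSG00000055368, chr8:93686707-93728295, plus strand) encodes the noradrenaline transporter, which ends the signal by reuptake. It had the highest count of the 9 in every vein, from 192 through 508 to 893 normalized CPM in sham and from 93.1 through 235 to 520 in AVF. The highest AVF value, in AVF female replicate 1, exceeded 3 of the 6 sham veins. Its mean was 555 ± 260 in sham and 253 ± 145 in AVF, a log2 fold change of -1.13 ± 0.41 with an adjusted p of 0.0796.

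Phox2a (ENSMUSG00000007946, chr7:101467514-101471933, plus strand) encodes a homeodomain factor that helps to specify noradrenergic neurons. Sham veins held 4.13, 14.2 and 16.2 normalized CPM (lowest, median, highest) and AVF veins 0.973, 5.00 and 9.53. It had the widest range of the 9, 16.7-fold between the lowest and highest vein, and the largest standard error, with a log2 fold change of -1.18 ± 0.47 and an adjusted p of 0.108.

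Hand2 (ENSMUSG00000038193, chr8:57774011-57777677, plus strand) encodes a basic helix-loop-helix factor that drives and maintains Th and Dbh expression. Lowest, median and highest normalized CPM were 19.2, 41.1 and 55.9 in sham veins and 5.09, 19.8 and 32.6 in AVF veins. In this case 3 AVF veins were above the lowest sham vein. The log2 fold change was -1.07 ± 0.36 (adjusted p 0.0633).

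Npy (ENSMUSG00000029819, chr6:49799026-49806489, plus strand) encodes neuropeptide Y, the cotransmitter of most vasoconstrictor neurons. Values ran from 41.3 through 124 to 167 normalized CPM in sham veins and from 12.4 through 45.01 to 91.8 in AVF veins. As for Dbh, 5 of 6 sham veins were above every AVF vein. With a mean of 119 ± 42.3 in sham and 50.02 ± 27.1 in AVF, Npy had the largest fold change of the 9, at -1.26 ± 0.40 on the log2 scale, and an adjusted p of 0.0560.

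Ret (ENSMUSG00000030110, chr6:118128706-118174769, minus strand) encodes the receptor tyrosine kinase through which ligands of the GDNF family act on developing and adult neurons. Its normalized CPM was 59.6, 68.1 and 107 in sham veins (lowest, median, highest) and 27.2, 31.1 and 64.7 in AVF veins. Only AVF female replicate 1 was above the lowest sham vein, and sham was higher in 34 of the 36 possible pairs of a sham and an AVF vein. The mean fell from 74.8 ± 18.2 in sham to 36.03 ± 14.4 in AVF, a log2 fold change of -1.06 ± 0.22 with an adjusted p of 0.0111. The fold change was about as large as for the other 8, and the standard error was the smallest.

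Compared per kilobase of transcript, since longer transcripts give more counts, the order of the means was the same in sham and AVF veins: Npy, Slc6a2, Dbh, Slc18a2, Ddc, Hand2, Ret, Th and Phox2a. Lengths were those of the canonical transcript, 4.842 kilobases for Th. The order with other transcripts was not examined. Npy stood at 211 ± 74.8 normalized CPM per kilobase in sham and 88.4 ± 47.9 in AVF (SD, n = 6 each). Slc6a2 followed at 85.2 ± 39.9 and 38.9 ± 22.2, and Dbh at 55.5 ± 24.5 and 23.4 ± 12.1. The levels of Npy and Slc6a2 differed by more than the larger of their SDs in both operations, and those of Ddc (31.3 ± 12.1) and Hand2 (17.0 ± 5.88) did so in sham veins. All other neighbours in this order were closer to each other than the larger of their SDs. These SDs are between veins that the genes shared, so they do not measure the order within a vein. Slc6a2 was above Dbh in every vein, at 14.3 against 6.03 in AVF male replicate 1 and 137 against 90.3 in sham female replicate 3. Ret and Hand2 did not keep their order, with Ret at 4.77 and Hand2 at 2.15 in AVF male replicate 1. Phox2a was last at 7.49 ± 3.03 in sham and 3.34 ± 2.09 in AVF.

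The veins kept nearly the same order for each of the 9 genes. AVF male replicate 1 had the lowest value of all 12 veins for 9 of 9 genes, and sham female replicate 3 had the highest for 9 of 9, with sham female replicate 2 next for each. Summed over the 9, AVF male veins held 209, 599 and 609 normalized CPM, AVF female veins 1135, 412 and 589, sham male veins 1100, 1386 and 1092, and sham female veins 498, 1777 and 2009. The sum in AVF female replicate 1 was thus within the range of the sham male veins, and that in sham female replicate 1 within the range of the AVF veins. Within one operation the highest vein exceeded the lowest by 2.38-fold (Ret) to 9.79-fold (Phox2a) in AVF and by 1.80-fold (Ret) to 4.77-fold (Dbh) in sham.

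**Figure D2:**
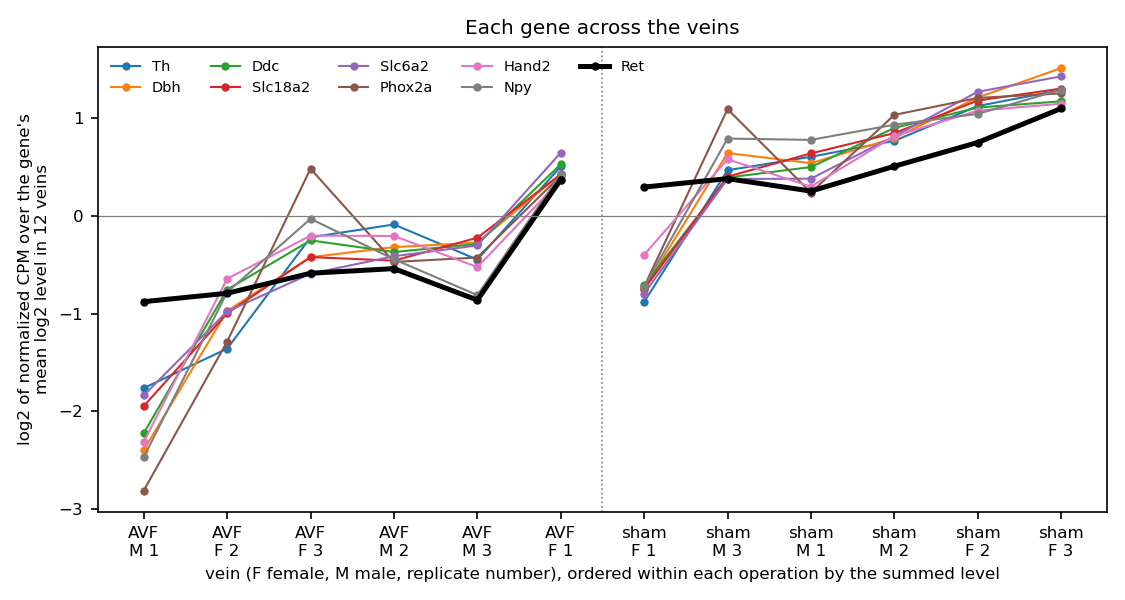
Log2 of the normalized CPM of each of the 9 genes, relative to its own mean log2 level over 12 veins, with AVF veins on the left and sham veins on the right, each ordered by the summed level (F female, M male, with the replicate number). The lines run close to each other, and Ret (thick black line) lies above the others in the 2 veins with the lowest sum of their operation, AVF male replicate 1 and sham female replicate 1.

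Over the 36 pairs of these genes, Pearson's r of log2 CPM across 12 veins was between 0.766 (Phox2a with Ret) and 0.992 (Dbh with Ddc), with a median of 0.962, and Spearman's rho was between 0.832 and 0.986. Permutation p for r, adjusted over the 36 pairs, lay between 1.5e-05 and 0.00285. Without the 2 veins farthest from the median, r was 0.683 to 0.991. Within the 6 AVF veins r was 0.598 to 0.994 and within the 6 sham veins 0.611 to 0.997, so the relation was present inside each operation for the 28 pairs without Ret (r of at least 0.864, exact permutation p of at most 0.0375). For the 8 pairs with Ret the r within an operation was 0.598 to 0.805, and no exact permutation p was under 0.0528. All 9 genes were read in the same libraries, so a shared amount of neuronal RNA in a sample and a shared scaling enter every pair.

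Relative to Dbh, 7 of the other 8 genes kept a narrow ratio. The SD of the log2 ratio was 0.171 for Ddc, 0.176 for Slc18a2, 0.214 for Slc6a2, 0.229 for Hand2, 0.247 for Npy, 0.268 for Th and 0.375 for Phox2a, against SDs of 0.952 to 1.21 for the log2 levels of these genes and of Dbh. Ret stood apart, with an SD of 0.636 for the ratio and 0.690 for its level. The ratio of Ret to Dbh was 1.502 in AVF male replicate 1 and 1.08 in sham female replicate 1, the veins with the least Dbh of their operation, and 0.349 to 0.595 in the other 10 veins. The SD of the log2 level was 1.08 for Dbh, larger than for Ret. A ratio of this kind tends to be highest where Dbh is lowest, so it adds little to the smaller spread of Ret.

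None of the 9 genes passed the test between the sexes. Among sham veins the log2 fold change of female over male was between -0.07 for Npy and 0.38 for Slc6a2, with standard errors of 0.19 to 0.48, and 0 of 9 genes were called by edgeR (18 of 21992 genes, 0.0818%, were called in either direction). Female sham veins held both the lowest and the highest values of their operation in 8 of the 9 genes, and the male sham veins lay between them. Ret was the exception, where sham male replicate 1 was lowest at 59.6 normalized CPM and sham female replicate 1 stood at 61.4. Among AVF veins all 9 log2 fold changes of female over male were above 0, between 0.41 for Th and 0.94 for Npy, with standard errors of 0.30 to 0.67, and 0 of 9 were called (0.0316% of 22123 genes). The fold change of AVF over sham in females minus that in males was between 0.08 for Ret and 0.98 for Npy on the log2 scale, with standard errors of 0.37 to 0.90, and 0 of 9 passed an adjusted p under 0.05 (0% of 22163 genes). An unadjusted p under 0.05 was reached by 0 of the 9 in each of these 3 comparisons (9.23%, 3.3% and 4.82% of all genes tested for sham, AVF and the interaction), and DESeq2 called 0 in each. With 3 veins in each group, these standard errors leave room for differences between the sexes that could not be detected.

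Other genes of noradrenergic neurons were read from lists made by function. Of 9 further transcription factors of this lineage, 8 were tested, 7 had a negative log2 fold change of AVF over sham and the median was -1.01. Gata3, a zinc finger factor needed for Th and Dbh expression, fell from 11.3 ± 3.53 to 5.41 ± 2.04 normalized CPM (log2 fold change -1.07 ± 0.26, adjusted p 0.0212). It was the only one called (1.4% of all genes were called lower), and 0 to 5 were called with 1 vein left out. The call of Gata3 was lost, with a fold change just under 2, without AVF female replicate 2, sham female replicate 2 or sham female replicate 3. Gata2 was lower by a smaller step with little spread, at -0.65 ± 0.10 and an adjusted p of 0.00198. Tfap2b, a factor of the neural crest, was at -0.996 ± 0.413 (adjusted p 0.120).

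Enzymes that supply cofactors to catecholamine synthesis or break the product down were less uniform. None of the 8 tested was called, with a median log2 fold change of -0.55, although Pts, Spr and Maob had an adjusted p under 0.05 at less than 2-fold. Maoa, which degrades noradrenaline in the axon, was at -0.97 ± 0.31 (adjusted p 0.0550) and Cyb561, the vesicle cytochrome that recycles ascorbate for dopamine beta-hydroxylase, at -0.93 ± 0.31 (adjusted p 0.0597). Their levels followed the 9 genes across the veins (r = 0.977 and 0.982 with the mean z-score of the 9). Pnmt, which makes adrenaline in the adrenal medulla, had fewer than 3 counts in every vein.

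Cargo proteins of dense core vesicles, general neuronal genes and the nicotinic receptors of ganglia all had negative fold changes. For 10 granins and peptide processing genes the median was -0.89 with none called, among them Scg2 at -1.01 ± 0.39 (adjusted p 0.100) and Chgb at -0.90 ± 0.48 (adjusted p 0.225). Without AVF female replicate 1, 2 of these were called (2.61% of all genes called lower), and without sham female replicate 1, 3 (2.03%). For 14 general neuronal genes the median was -0.98, and Elavl4, an RNA-binding protein of neurons, was the only one called (31.9 ± 11.8 to 13.2 ± 7.49 normalized CPM, log2 fold change -1.28 ± 0.38, adjusted p 0.0416). Its adjusted p was 0.0133 to 0.0812 with 1 vein left out, and the call held only without AVF female replicate 1 or sham female replicate 1. In those fits 7 and 5 of the 14 were called, and in the other 10 none. Of all genes 2.61% and 2.03% were called lower in those fits, and 1.4% with all veins. All 5 nicotinic subunits, through which preganglionic axons excite the ganglion cell, were negative with a median of -1.07 and none called. The most abundant were Chrna3 at -1.18 ± 0.40 and Chrnb4 at -1.19 ± 0.41, and Chrnb2, at -0.89 ± 0.28, had the lowest adjusted p, 0.0479. Without AVF female replicate 1 (2.61% of all genes called lower) or without sham female replicate 1 (2.03%), 4 of the 5 were called. In these 3 lists r with the mean z-score of the 9 genes was between 0.834 and 0.996 across veins, given as a description.

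**Figure D3:**
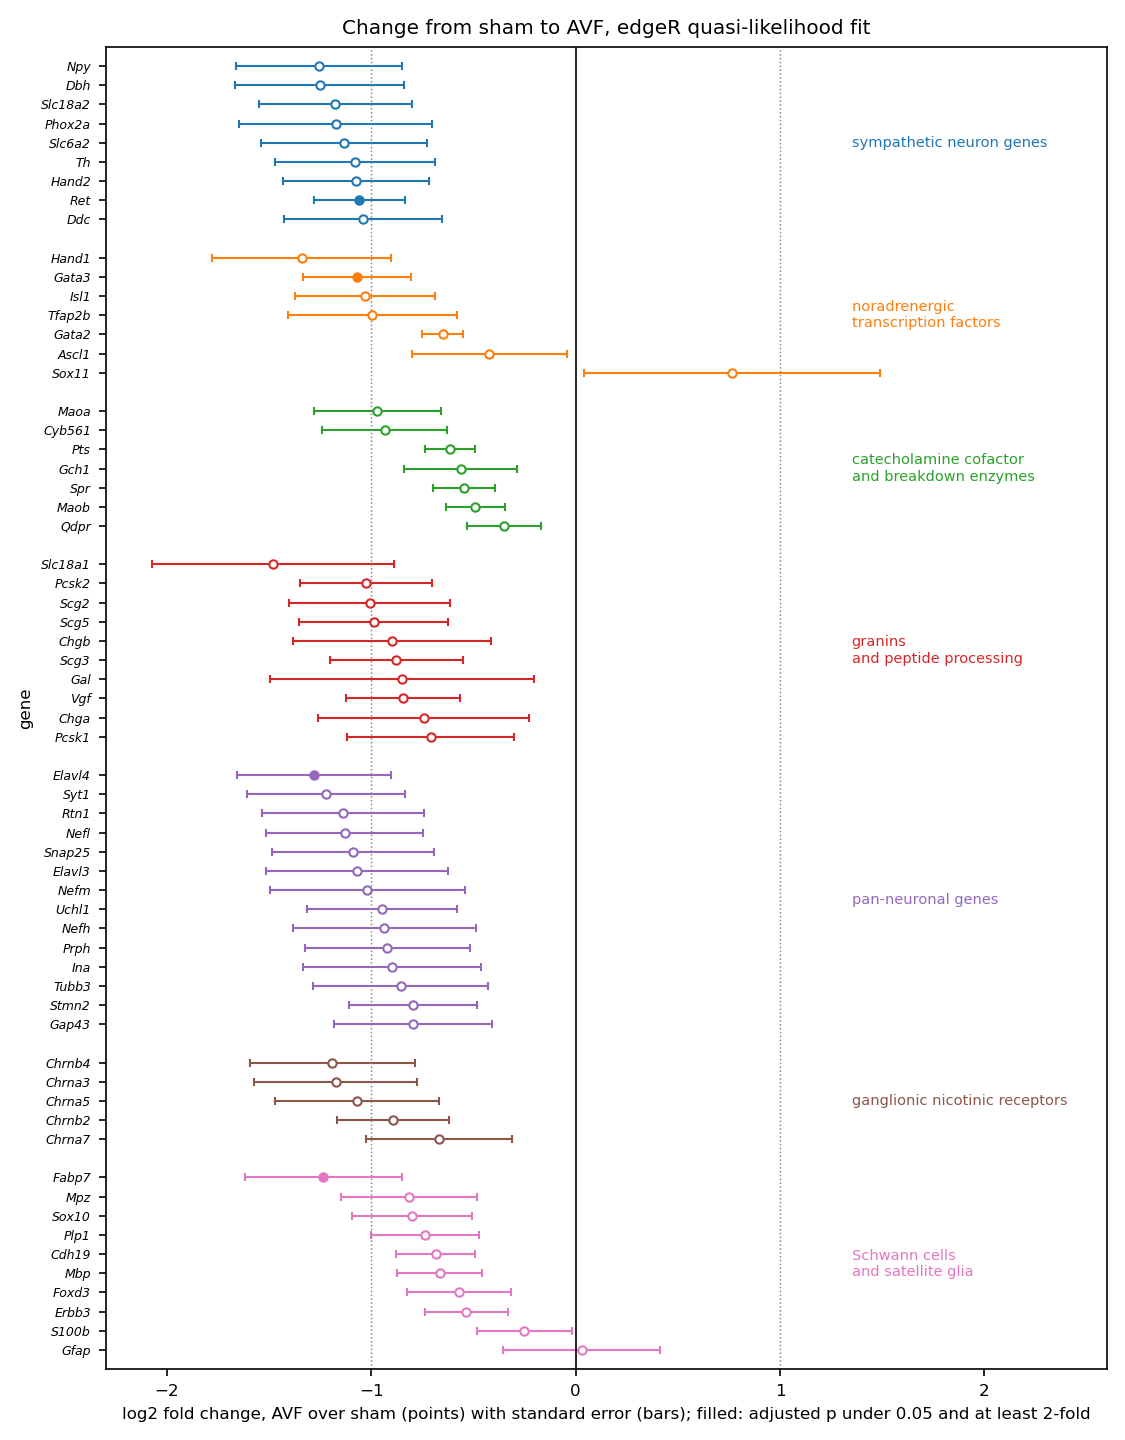
Log2 fold change of AVF over sham with its standard error for the 9 sympathetic neuron genes and genes of 6 other lists, by edgeR, with filled points for genes with an adjusted p under 0.05 and at least a 2-fold change. The 9 genes lie between -1.26 and -1.04 and only Ret is filled, while granins span -1.48 to -0.71, general neuronal genes -1.28 to -0.796 and nicotinic subunits -1.19 to -0.668.

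Of the receptors and ligands of neurotrophic factors, 1 of each was called. Ngfr, the p75 receptor for neurotrophins found on neurons and glia, fell from 134 ± 48.3 to 58.6 ± 27.1 normalized CPM (log2 fold change -1.20 ± 0.32, adjusted p 0.0293). Ngfr was the only one of 7 receptors called (1.4% of all genes were called lower). Without AVF male replicate 2, sham female replicate 2 or sham female replicate 3 its adjusted p was 0.0570 to 0.0603. Of 5 ligands tested, Bdnf alone was called, rising from 0.334 ± 0.305 to 1.94 ± 0.968 normalized CPM (log2 fold change 2.54 ± 0.65, adjusted p 0.0249), a low level in every vein (3.37% of all genes tested were called higher). Its adjusted p was 0.0511 to 0.0533 without AVF female replicate 3, sham female replicate 2 or sham female replicate 3.

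On the receiving side, 2 of 9 adrenergic receptors were called lower (1.4% of all genes). This number ranged from 1 to 4 when 1 vein was left out and was 4 without AVF female replicate 1 (2.61% of all genes called lower). Adra1a, a constrictor receptor of smooth muscle, fell from 15.1 ± 6.85 to 5.70 ± 2.73 normalized CPM (log2 fold change -1.42 ± 0.36, adjusted p 0.0236). Adra2c, which also acts as an autoreceptor on sympathetic terminals, fell from 3.85 ± 1.29 to 1.82 ± 0.425 (-1.09 ± 0.25, adjusted p 0.0158). The adjusted p of Adra1a was 0.0531 without AVF male replicate 2 and 0.0508 without sham female replicate 2, and the fold change of Adra2c was just under 2 without AVF female replicate 2, sham male replicate 2 or sham male replicate 3. Of receptors for neuropeptide Y and its protease Dpp4, 3 were tested and none was called, and Npy1r, the main vascular receptor, was at 52.5 ± 20.1 in sham and 60.5 ± 16.5 in AVF.

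Genes most like the 9 were sought among the other 15903 genes tested, by Pearson's r of log2 CPM with the mean z-score of the 9 over 12 veins. The 12 highest were Chrna3 (r = 0.996), Syp, Mapk8ip2 and Snrpn (0.995 each), Syngr1 (0.994), Syngr3, Pcbp3 and Nap1l5 (0.993 each), Entpd3 and Napb (0.992 each), Sgpp2 and Disp2 (0.991 each). Syp, Syngr1 and Syngr3 encode proteins of synaptic vesicles, and Chrna3 the main nicotinic subunit of autonomic ganglia. An r over 0.9 was found for 512 genes (3.22%), an r over 0.95 for 260 (1.63%) and an r under -0.9 for 3.

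**Figure D4:**
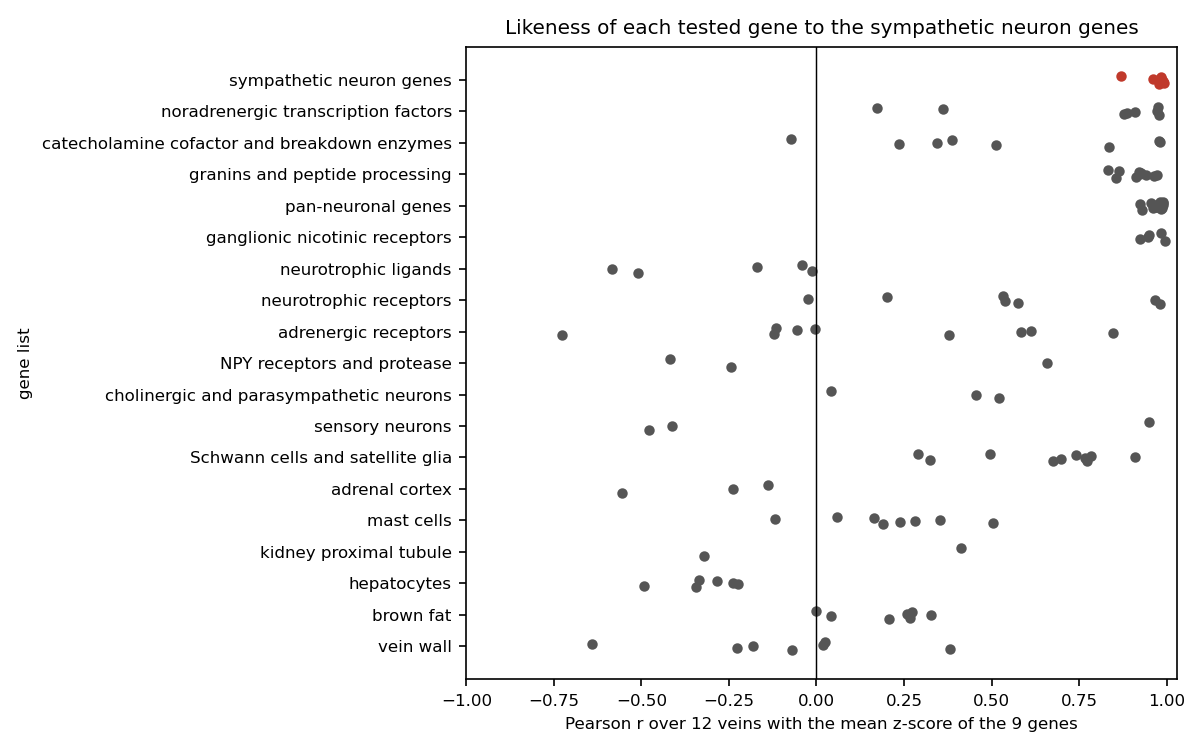
Pearson's r over 12 veins between the log2 CPM of each tested gene of 19 lists (rows) and the mean z-score of the 9 sympathetic neuron genes, whose own points (red) include themselves. Granins, general neuronal genes and nicotinic receptors lie between 0.834 and 0.996, while mast cell, hepatocyte, brown fat and vein wall genes lie between -0.640 and 0.504.

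Markers of other cells were read beside these results. Of 10 Schwann cell and satellite glia genes, 9 had a negative fold change (median -0.68) and Fabp7 was called (-1.24 ± 0.38, adjusted p 0.0497, a call that 10 of 12 fits with a vein left out did not give), with a summed level of 490 to 988 normalized CPM in sham veins and 257 to 576 in AVF veins. The 9 neuronal genes over these 10 glial genes gave a ratio of summed levels of 0.813 in AVF male replicate 1 and 0.933 in sham female replicate 1, the lowest of the 12, and of 3.63 and 3.00 in sham female replicates 2 and 3, the highest. Of 7 brown fat genes 4 were called lower (Cidea, Cox7a1, Cox8b and Cpt1b), against 1.4% of all genes. The sum of the list was 119 to 1859 normalized CPM in sham and 49.7 to 337 in AVF. Brown fat and neuronal sums had no common order in sham veins. They were 1859 and 498 in sham female replicate 1, 1197 and 1777 in sham female replicate 2, and 119 and 1386 in sham male replicate 2. Brown fat genes had an r of -0.00176 to 0.326 with the mean z-score of the 9 genes. The part of fat or glia in the neuronal differences was not tested.

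Most defining genes of other neurons and of the adrenal cortex were low. Chat and Slc18a3 of cholinergic neurons were at most at 0.212 and 0.287 normalized CPM in any vein, and none of 3 tested genes of that list was called. Of 9 sensory neuron genes 3 were tested, with Prdm12 and Pou4f1 under 3 counts in every vein. Avil, which encodes the actin-binding protein advillin, was the highest of them, at 29.7 ± 11.4 normalized CPM in sham and 15.3 ± 9.26 in AVF, above the level of Phox2a. Its log2 fold change was -0.97 ± 0.46 (adjusted p 0.173), and its r with the mean z-score of the 9 genes was 0.951. Calca, which encodes calcitonin and CGRP, was called higher in AVF at a low level (0.274 ± 0.088 to 1.601 ± 0.994 normalized CPM, log2 fold change 2.51 ± 0.52, adjusted p 0.00979). Of 8 adrenal cortex genes, Cyp11b2, Cyp21a1, Hsd3b1 and Nr5a1 had fewer than 3 counts in every vein. Cyp11b1 was called higher (1.18 ± 0.806 to 3.61 ± 1.48 normalized CPM, log2 fold change 1.61 ± 0.48, adjusted p 0.0418). The 3 tested genes of that list had log2 fold changes between 0.79 and 1.61, and only Cyp11b1 was called. Of all genes 3.37% were called higher. None of 8 mast cell genes, which mark another cell with Slc18a2, was called (median 0.15, with Cpa3 at 0.30 ± 0.24), and none of 2 tested kidney tubule genes, Cubn and Lrp2.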

How the data were processed

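Poly-A RNA-seq libraries of 12 mouse veins were used, 3 for each sex and operation, grouped by the sample labels. Expected counts per gene, not normalized, were deposited by the authors, who had trimmed reads (PRINSEQ, Trimmomatic 0.39), mapped them with STAR 2.7.7a on GRCm39 and estimated counts for the reverse strand with RSEM 1.3.3. Between 5.72% and 7.75% of the values in a library were not whole, and all were rounded here. Gene names, coordinates, transcript lengths and promoters came from GENCODE M39 on GRCm39, a later release than that of the authors, with 665 identifiers unnamed. No column was left unused.

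Counts were scaled with TMM and tested with edgeR 4.0.16 (quasi-likelihood, R 4.3.3). AVF against sham was fitted on 15912 genes that exceeded 1 CPM in 2 or more samples, and the comparisons of the sexes and the interaction on genes with more than 12 counts in all (22163). Calls needed a Benjamini-Hochberg adjusted p under 0.05 and a log2 change of 1 or more in size (0.585 between the sexes, none for the interaction). DESeq2 1.42.0 was an alternative, as were other scalings and filters, edgeR's exact test, sex as a covariate, a replicate block and leaving out each vein. On simulated data for AVF against sham, 194 of 200 genes changed 4-fold were recovered with 6 false calls among 15912 genes. For female against male the same step recovered 157 of 200 in sham (16 false calls among 22150 genes) and 158 in AVF (4 among 22136), and for the interaction 117 (4 among 22163). Only 4-fold changes were simulated, so these counts do not give the recovery of smaller ones. The changed genes were drawn only from those above a minimum mean count, so recovery at low counts is not given either. The sympathetic neuron genes changed by less than 4-fold, with log2 fold changes of AVF over sham between -1.26 and -1.04. Correlations used log2 CPM with a prior count of 1 and 100000 permutations, or exact ones within an operation. Chi-square divided by its degrees of freedom was 40.1 to 680 for the 12 within-group pairs, so mice differed by more than counting error.

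All 9 genes are named. The rule for each of 18 other lists was the genes called in AVF against sham and otherwise those of highest mean CPM, up to 4, and not every gene that it gives is described. Some genes of these lists are not reported by name here. Pts, Spr, the test of Chrnb2 and the genes given as near 0 were named after their values were seen. The 9 genes and the lists were chosen with earlier results of these data known. Replicate numbers did not pair AVF with sham veins (r of their deviations -0.144 to 0.175). Female and male AVF veins of the same number deviated together (r 0.243, 0.696 and 0.488 for numbers 1, 2 and 3), though no label gives a shared batch. Those with number 2 were the veins that held hepatocyte RNA, and its part in these r was not tested. The block left 0 of the 9 genes called between female and male AVF veins.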

Additional observations from a re-analysis of the deposited data

Results flagged for a closer look

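The level of Ret in AVF veins stood out for 1 sample. AVF female replicate 1 held 64.7 normalized CPM, and the other 5 AVF veins 27.2 to 34.4, so that the gap to the nearest vein was 0.808 of the range of the group, above the limit of Dixon's test for 6 values at the 95% level. Chance gives such a gap in about 5% of groups, and 18 groups (9 genes in 2 operations) were examined. This library was also the one with 46% ribosomal RNA and the smallest scaling factor, and it was the highest AVF vein for 8 of the 9 genes. The part of ribosomal RNA or scaling in the value was not tested.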

How the results depend on the processing

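The 9 genes had a negative log2 fold change of AVF over sham in each of the 22 alternatives run. The alternative without a fold change threshold reused the main fit, so its fold changes could not differ. The number called, 1, became 9 with DESeq2 (2.56% of all genes called lower) and 8 with edgeR's exact test (2.27%). It became 2 with sex as a covariate (Ret and Npy, against 1.37% of all genes called lower) and 0 without both veins that held hepatocyte RNA. With 1 vein left out it lay between 0 and 8. It was 8 without AVF female replicate 1 (2.61% of all genes) and without sham female replicate 1 (2.03%). It was 0 without AVF male replicate 1, AVF male replicate 3 or sham female replicate 3. With a replicate block the count remained 1, and with the block the log2 fold changes of female over male sham veins changed sign for Th (-0.0605), Ddc (-0.0555) and Slc18a2 (-0.0248). Without 1 vein these sex differences also changed sign, ranging in sham veins from -0.16 to 0.59 for Th, -0.10 to 0.71 for Dbh, -0.13 to 0.53 for Ddc, -0.11 to 0.60 for Slc18a2, -0.27 to 0.40 for Phox2a, -0.0406 to 0.54 for Hand2 and -0.40 to 0.34 for Npy. In AVF veins they ranged from -0.0718 to 0.77 for Th and -0.0678 to 0.83 for Slc6a2. The interaction ranged from -0.21 to 0.56 for Th, -0.21 to 0.58 for Dbh, -0.15 to 0.56 for Slc18a2, -0.43 to 0.47 for Slc6a2 and -0.29 to 0.29 for Ret. None of these passed a test, and the cause was not tested. All 36 pairs of genes stayed past the test under each scaling, prior count and left-out vein tried. Without both veins that held hepatocyte RNA, in a fit of 10 veins, Gata3, Elavl4, Ngfr, Adra1a, Adra2c, Fabp7 and Bdnf lost their calls with log2 fold changes of -0.92, -1.16, -1.03, -1.24, -0.999, -1.22 and 2.445, each of the same sign as with all veins, and Calca kept its own, and with the replicate block Elavl4, Ngfr and Fabp7 lost theirs. Fabp7 lost its call in 6 of the 10 alternatives other than leaving out 1 vein, and Elavl4 and Ngfr each in 2. DESeq2 and edgeR's exact test each called 5 general neuronal genes, 4 transcription factors and 2 granins, and called 3 and 2 nicotinic subunits. The depth did not limit detection of the 9 genes, since the lowest value of any of the 9 genes, 0.973 normalized CPM of Phox2a, was above the level of 3 counts.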
